A study of Mus musculus with 9 samples.

Results

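Messenger RNA was compared between 3 libraries labelled Active and 3 labelled Quiescent, all of sorted cells that the labels call melanocyte stem cells of mouse skin. The 6 libraries were chosen by their titles from the 9 of the series. The remaining group, labelled UVB, is used here only in selecting the genes tested, scaling the libraries and estimating the spread between replicates. Both groups came from mice of genotype TBPT at 10 weeks of age, and the labels do not spell out the alleles behind that name. The treatment field names chemical depilation or UVB irradiation for every sample alike, so it does not say which group was depilated. Cells were isolated by fluorescence-activated sorting, and the markers of the gate are not stated. Each library was counted as 1 replicate after its label, which does not say whether it came from a separate animal or from pooled animals, so the p-values measure only the spread between these libraries.

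Melanocyte stem cells rest in the lower bulge of the hair follicle and in the hair germ, and are known as the reserve from which each new hair receives its pigment cells. They descend from the neural crest, as do Schwann cells, the glia of peripheral nerves, so that the 2 lineages share part of their transcription factors and surface receptors. A stem cell that leaves the resting state is known to enlarge its machinery for copying RNA, making protein and producing energy before it divides. The comparison asks what distinguishes cells labelled active from cells labelled quiescent, here across gene functions that reach beyond pigment and division.

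The libraries held 21045071 to 35131778 fragments assigned to genes, and 15078 of 23361 genes had enough fragments to be tested. Levels are given as CPM, counts per 1000000 of the library total after scaling by trimmed means of M values (TMM), with the value of each library in the order of its replicate number. The Quiescent and Active libraries stood far apart: Pearson's r between log2 CPM values across genes was 0.739 to 0.771 between the groups, 0.949 to 0.963 within Quiescent and 0.979 to 0.986 within Active. Defining markers of the labelled cell type were low in Quiescent. The melanocyte list of 16 genes summed to 89.2 to 236 CPM there and to 8170 to 13200 CPM in Active, and Dct, an enzyme of melanin synthesis, stood at 18.5, 32.2 and 2.07 CPM in Quiescent against 7230, 4740 and 4720 CPM in Active (316-fold higher, adjusted p = 0.00014, 532-fold without Quiescent replicate 2). Markers of dermal fibroblasts, also 16 genes, summed to 342000 to 462000 CPM in Quiescent and 6760 to 8710 CPM in Active. With TMM factors of 0.66 to 0.748 in Quiescent and 1.163 to 1.225 in Active, these CPM are not shares of the fragments. Lists of endothelial cells (388 to 547 against 31.9 to 39.5 CPM) and of macrophages and dendritic cells (220 to 3220 against 41.8 to 122 CPM) were also fuller in Quiescent, the latter mainly in replicate 2. Hair matrix and inner root sheath genes (5.55 to 45.3 against 120 to 722 CPM) and Schwann cell genes (680 to 728 against 1930 to 2770 CPM) were fuller in Active. Of 14 tested Schwann cell genes 7 were higher and 2 lower in Active (adjusted p under 0.05), and the list shares Sox10 with the melanocyte list. Of 15 tested hair matrix and inner root sheath genes 9 were higher, but 3 without Quiescent replicate 1 or Active replicate 2. Nuclear long noncoding RNAs, 8 genes taken as a sign of the nuclear share of the RNA, summed to 2890 to 6330 CPM in Quiescent and 455 to 648 CPM in Active. They include Meg3 and Rian, described below, which stood at 859, 663 and 1630 CPM and at 874, 553 and 1430 CPM in Quiescent. A large part of the sum is thus from 1 imprinted region, which makes it a weak sign of the nuclear share. All these sums moved with the comparison. Their part in the results below was not tested, and in bulk RNA fewer cells of a type and less RNA per cell cannot be told apart.

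**Figure D1:**
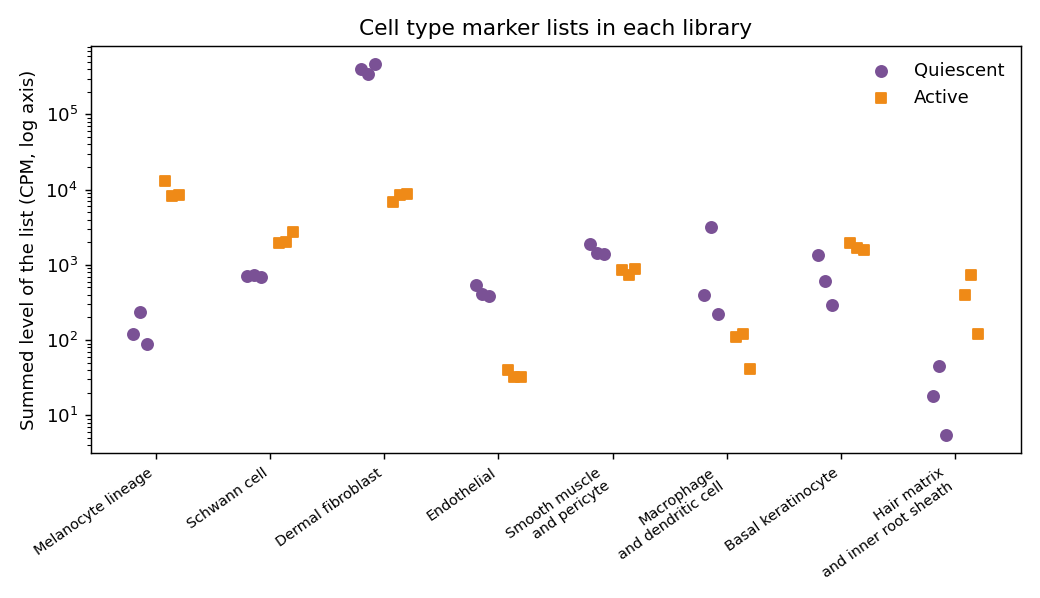
Summed level of 8 cell type marker lists in each of the 6 libraries, in CPM on a log axis, with 1 point per library (circles for Quiescent, squares for Active). The melanocyte sums lie at 89.2 to 236 CPM in Quiescent and 8170 to 13200 CPM in Active, and the fibroblast sums lie at 342000 to 462000 and 6760 to 8710 CPM.

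Of the genes tested, 4390 (29.1%) were higher and 4396 (29.2%) lower in Active at an adjusted p under 0.05 (edgeR, quasi-likelihood; p-values adjusted after Benjamini and Hochberg across all 15078 genes). The median difference was 2.14-fold among the higher genes and 2.88-fold among the lower. At least 4-fold differences were reached by 1300 higher genes (8.62%) and 1767 lower genes (11.7%). At least 10-fold differences were reached by 751 higher genes (4.98%) and 979 lower genes (6.49%), and the 3 values of a group lay wholly above or below those of the other in 66.2% of genes. This was so for each gene given below with its 6 values, because the rule for naming called genes required it. Since 58.3% of genes were called in either direction, the count called in a gene list is read against 29.1% and 29.2%, and its median log2 fold change against 0.01, the median of all genes tested. Fold sizes depended on the scaling. With library size alone, with no TMM factor, the median of all genes moved from 0.01 to 0.76 on the log2 scale, and 8651 genes were higher and 2208 lower, so that 79.7% of calls were higher against 50%. Relative to the median of all genes, no list or family median changed its side under library size alone, and none moved by more than 0.09 under any scaling tried.

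Genes that process and carry RNA were mostly higher in Active. The spliceosome, which removes introns from new transcripts, had 42 of 45 tested members higher in Active and 0 lower, with a median log2 fold change of 0.97. Prpf19, a ubiquitin ligase that activates the spliceosome, stood at 78.3, 77.5 and 72.4 CPM in Quiescent against 174, 190 and 173 CPM in Active, with a log2 fold change of 1.23 ± 0.11 (SE, adjusted p = 2.8e-05). Eftud2, the GTPase of the U5 particle, stood at 60.7, 60.7 and 57.4 CPM in Quiescent against 148, 156 and 145 CPM in Active, and was 2.51-fold higher (adjusted p = 4.6e-05). All 3 Active values lay above all 3 Quiescent values in both genes, as in 42 of the 45, against 33.5% of all genes tested. Snrpd2 and Snrnp40, further proteins of the spliceosomal particles, were 2.35-fold higher (adjusted p = 2.5e-05) and 2.65-fold higher (adjusted p = 3.9e-05). Nuclear pore proteins and transport receptors, the gates and carriers between nucleus and cytoplasm, were higher for 32 of 45 and lower for 2. Ran, the GTPase that sets the direction of nuclear transport, stood at 113, 97.1 and 129 CPM in Quiescent against 468, 530 and 414 CPM in Active. It was 4.16-fold higher (adjusted p = 4.4e-05). Kpna2, an importin that carries cargo into the nucleus, was 10.7-fold higher (adjusted p = 8.2e-05), and Nup93, a scaffold of the pore, 3.03-fold higher (adjusted p = 5.3e-05).

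Most genes of ribosome assembly were higher, and most ribosomal protein genes were not called. Of 50 tested ribosome biogenesis genes, which make and modify ribosomal RNA and assemble the subunits, 41 were higher and 1 lower (median 0.79). Polr1a, the largest subunit of RNA polymerase I that transcribes ribosomal RNA, stood at 13.4, 11.1 and 11 CPM in Quiescent against 39.1, 39.9 and 41.6 CPM in Active, with a log2 fold change of 1.76 ± 0.14 (SE, adjusted p = 1.6e-05). Bysl, which acts in making the small subunit, was 3.41-fold higher (adjusted p = 4.1e-05), and Rrs1, a factor of the large subunit, was 2.66-fold higher (adjusted p = 3.4e-05). In contrast, 8 of 93 tested genes of the Rpl and Rps families, which hold the proteins of the cytosolic ribosome and some genes that share their names, were higher and 7 lower, with a median of 0.01. Without Active replicate 2 these were 5 and 4, and 3 and 4 were lower without Active replicates 1 and 3. Rpl39l, a close relative of Rpl39, had 31.2, 31.2 and 42.7 CPM in Quiescent against 0.779, 0.653 and 1.06 CPM in Active (42.1-fold lower, adjusted p = 2.7e-05). The counting model may share fragments between such close copies, so its value is uncertain. Under library size alone 82 of these 93 genes were higher and 2 lower (median 0.77 against 0.76 for all genes). Translation factors were higher for 21 of 45 and lower for 5. Eif2b2, a subunit of a nucleotide exchange factor of translation initiation, was 2.32-fold higher (adjusted p = 1.8e-05). Pdcd4 and Eif4ebp1, which restrain the initiation helicase and the cap-binding factor, were 2.74-fold lower (adjusted p = 0.00046) and 2.01-fold lower (adjusted p = 0.0011), the latter not called under library size alone (log2 fold change -0.25, adjusted p = 0.19). Of 20 tested cytosolic aminoacyl-tRNA synthetases, which load amino acids onto their tRNAs, 11 were higher and 0 lower, Farsa for phenylalanine being 2.52-fold higher (adjusted p = 1.3e-05).

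**Figure D2:**
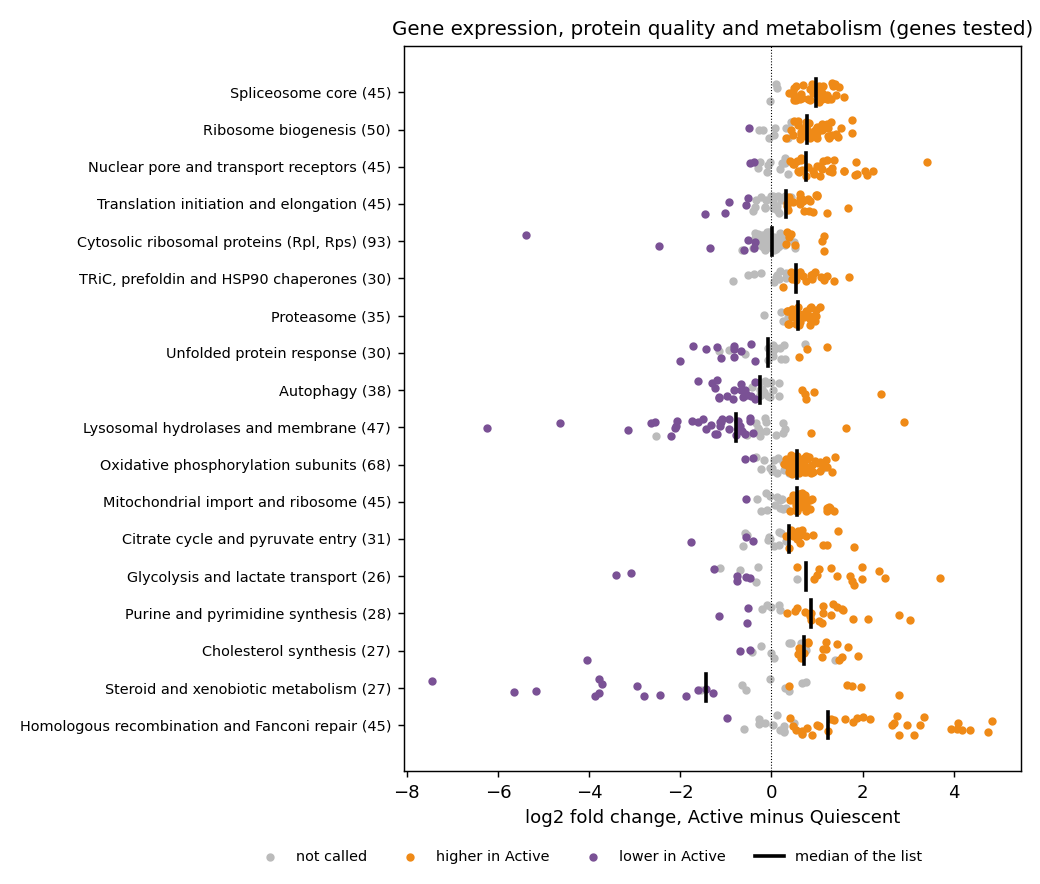
log2 fold change of each tested member of 18 lists and families, with 1 point per gene (orange: higher in Active, purple: lower, grey: not called) and a black bar at the median of the list. Spliceosome, ribosome biogenesis and proteasome members lie almost all to the right of 0, ribosomal proteins cluster at 0, and lysosomal genes lie mostly to the left.

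Promoters were read for 5 of the lists that were mostly higher, since sites of ETS and NRF1 factors are known near the starts of genes for basic cell functions. The 250 bases before each start, from the RefSeq promoters of build GRCm38.p6, were read for 11075 of the genes tested. The promoters of 1 chromosome were left out of the search. The letters CCGGAAGT on either strand, a site type of ETS family factors, stood in 5.93% of these genes. They stood in 8 of 43 ribosome biogenesis genes (18.6%), 7 of 39 mitochondrial import and ribosome genes (17.9%) and 6 of 29 proteasome genes (20.7%), but in 2 of 37 spliceosome genes (5.41%) and 2 of 56 oxidative phosphorylation genes (3.57%). Among all genes with a promoter, the share was 6.67% of those higher in Active, 4.26% of those lower and 6.56% of those not called. The palindromic NRF1 motif stood in 1.72% of all genes, in 2 of 56 oxidative phosphorylation genes (3.57%), in 1 gene each of the mitochondrial, spliceosome and proteasome lists, and in 0 of 43 ribosome biogenesis genes. These are matches of letters and do not show binding. Of the genes holding the ETS letters, those with the smallest adjusted p in their list are shown with 60 bases each, 5′ to 3′ on the strand of the gene, with the matched letters in capitals. Heatr1, Grwd1 and Mrps22 hold them as written and Psmc1 on the other strand.
Heatr1 (chr13:12395315-12395374, forward strand): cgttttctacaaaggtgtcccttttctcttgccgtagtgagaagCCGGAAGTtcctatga
Grwd1 (chr7:45830794-45830853, reverse strand): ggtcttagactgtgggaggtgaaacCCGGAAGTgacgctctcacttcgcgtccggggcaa
Mrps22 (chr9:98601680-98601739, reverse strand): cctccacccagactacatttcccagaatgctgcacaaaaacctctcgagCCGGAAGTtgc
Psmc1 (chr12:100110142-100110201, forward strand): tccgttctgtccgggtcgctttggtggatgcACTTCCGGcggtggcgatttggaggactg
In these the first matched base lies 16, 39, 11 and 29 bases before the start. Heatr1, needed for transcription by RNA polymerase I, stood at 20.6, 19.7 and 19.2 CPM in Quiescent against 48.7, 49.4 and 45.2 CPM in Active (2.41-fold higher, adjusted p = 3.1e-05). Grwd1, a chaperone of the large ribosomal subunit, was 2.87-fold higher (adjusted p = 0.00013), Mrps22, a protein of the mitochondrial ribosome, 2.31-fold higher (adjusted p = 0.00066), and Psmc1, an ATPase of the proteasome, 1.96-fold higher (adjusted p = 8.5e-05).

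Genes of protein quality control differed in direction between lists. Proteasome genes, which encode the chamber that degrades ubiquitin-tagged proteins, were higher for 31 of 35 and lower for 0, though by little (median 0.58). Psmd3, of its regulatory cap, stood at 73, 66.3 and 68.4 CPM in Quiescent against 141, 144 and 147 CPM in Active (2.08-fold higher, adjusted p = 8.1e-05). Cytosolic folding machines, the chaperonin TRiC, prefoldin and the HSP90 system, were higher for 18 of 30 and lower for 0. Fkbp4, a co-chaperone of HSP90 and steroid receptors, stood at 50.3, 42.5 and 52.5 CPM in Quiescent against 169, 163 and 146 CPM in Active, and was 3.28-fold higher (adjusted p = 1.8e-05). Genes of the unfolded protein response, which senses misfolded protein in the endoplasmic reticulum, were lower for 11 of 30 and higher for 3, a balance that turned to 17 higher and 4 lower under library size alone. Without Quiescent replicate 3, 10 were higher. The sensor Ern1 stood at 21.4, 23.1 and 19.3 CPM in Quiescent against 10.3, 8.23 and 9.44 CPM in Active (2.28-fold lower, adjusted p = 0.00018), and Xbp1, the transcription factor it activates, at 198, 184 and 268 CPM in Quiescent against 106, 94.8 and 98.7 CPM in Active (2.17-fold lower, adjusted p = 0.00088). Xbp1 was not called under library size alone (log2 fold change -0.35, adjusted p = 0.08). Herpud1, a factor of endoplasmic reticulum degradation, was 3.32-fold lower (adjusted p = 0.0012), whereas the chaperone Hyou1 was 2.33-fold higher (adjusted p = 4.0e-05).

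Autophagy and lysosome genes were lower more often than higher. Of 38 tested autophagy genes 17 were lower and 5 higher, which became 3 and 21 under library size alone. Gabarap, a protein of the autophagosome membrane, was 2.21-fold lower (adjusted p = 0.00026), and Ulk2, a starting kinase, 2.29-fold lower (adjusted p = 2.9e-05), whereas Tecpr1, which joins autophagosomes to lysosomes, was 5.26-fold higher (adjusted p = 1.1e-05). Of 47 lysosomal hydrolases and membrane proteins 31 were lower and 3 higher (median -0.77), against 15 lower and 11 higher under library size alone (median -0.03). Ctsk, a collagen-degrading protease that is also common in dermal fibroblasts, stood at 7810, 6190 and 6090 CPM in Quiescent against 89.6, 74 and 101 CPM in Active, and was 76-fold lower (adjusted p = 1.4e-05). Scarb2, a membrane protein that delivers glucocerebrosidase, went the other way at 39.4, 56.8 and 38.5 CPM in Quiescent against 287, 352 and 377 CPM in Active (7.54-fold higher, adjusted p = 1.1e-05). The proton pump that acidifies the lysosome had 7 of 22 members higher and 7 lower, shares near those of all genes. Under library size alone these were 13 and 0. Of the higher, Atp6v0e2, an isoform of its membrane part, was 11.9-fold higher (adjusted p = 3.6e-05). Sites of the MITF and TFE factors are known near lysosomal genes, so the letters TCACGTGA were searched there too. They stood in 5 of 37 lysosomal genes (13.5%), of which 2 were lower in Active and 3 not called, against 1.67% of all 11075. Over all genes with a promoter, the share was 1.34% of those higher in Active, 2.07% of those lower and 1.63% of those not called. The longer palindrome of the CLEAR motif, which contains the same letters, stood in 1 of the 37 lysosomal genes (2.70%) and in 0.533% of all. The 2 lower genes are shown in the same way.
Mcoln1 (chr8:3500448-3500507, forward strand): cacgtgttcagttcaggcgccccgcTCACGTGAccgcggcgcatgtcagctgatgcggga
Ctsa (chr2:164833713-164833772, forward strand): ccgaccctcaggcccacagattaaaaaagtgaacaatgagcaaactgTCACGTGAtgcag
The first matched base lies 46 bases before the start in Mcoln1, a lysosomal calcium channel that was 1.56-fold lower (adjusted p = 0.0038). In Ctsa, a protective protease of lysosomal enzymes that was 1.66-fold lower (adjusted p = 0.0067), it lies 13 bases before the start. Neither gene was called under library size alone, where their log2 fold changes were 0.10 and 0.01.

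In each of 4 lists of energy metabolism more genes were higher than lower in Active. Of 68 tested nuclear-encoded subunits of oxidative phosphorylation, 52 were higher and 2 lower (median 0.56). Ndufb8, of complex I, stood at 47.9, 42.7 and 42.7 CPM in Quiescent against 90.3, 107 and 95.7 CPM in Active, with a log2 fold change of 1.14 ± 0.10 (SE, adjusted p = 3.0e-05). Cyc1 of complex III and the electron carrier Cycs were 2.23-fold higher (adjusted p = 4.5e-05) and 2.64-fold higher (adjusted p = 7.2e-05). Mitochondrial import and ribosome genes were higher for 32 of 45 and lower for 1, Timm50 of the inner membrane import gate being 2.6-fold higher (adjusted p = 0.00011). In the citrate cycle 17 of 31 were higher and 3 lower. Mdh2, the mitochondrial malate dehydrogenase, was 2.21-fold higher (adjusted p = 4.0e-05), while Idh1, the cytosolic isocitrate dehydrogenase, stood at 323, 264 and 413 CPM in Quiescent against 103, 94.6 and 97.7 CPM in Active (3.38-fold lower, adjusted p = 5.7e-05). Glycolysis and lactate transport had 14 of 26 higher and 7 lower (4 without Active replicate 2). Pgk1, phosphoglycerate kinase, stood at 94.3, 82.6 and 108 CPM in Quiescent against 473, 504 and 474 CPM in Active, and was 5.1-fold higher (adjusted p = 1.5e-05). Ldha, which turns pyruvate into lactate, was 3.5-fold higher (adjusted p = 9.3e-06), and Hk1, the first kinase of the pathway, 3.94-fold higher (adjusted p = 2.0e-05). Pfkfb4, an enzyme that sets the level of a glycolysis regulator, was 8.45-fold lower (adjusted p = 2.3e-05).

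Lists of biosynthetic pathways held more higher than lower genes, to unequal extents. Nucleotide synthesis had 20 of 28 higher and 3 lower. Dck, which salvages deoxynucleosides, stood at 5.9, 9.53 and 6.2 CPM in Quiescent against 58.6, 68.5 and 49.2 CPM in Active (8.17-fold higher, adjusted p = 9.9e-05), and Impdh1, an isoform of the first enzyme of guanine nucleotide synthesis, was 2.22-fold lower (adjusted p = 5.7e-05). In serine, glycine and folate metabolism 11 of 27 were higher and 6 lower (3 without Quiescent replicate 3 or Active replicate 2), and most were not called. Psat1, the aminotransferase of serine synthesis, stood at 20.7, 13.9 and 22.6 CPM in Quiescent against 202, 260 and 242 CPM in Active, with a log2 fold change of 3.62 ± 0.26 (SE, adjusted p = 1.3e-05). Mthfd1l, of the mitochondrial folate pathway, was 12.3-fold higher (adjusted p = 2.8e-05). Polyamine genes were higher for 8 of 14, among them Sms, spermine synthase, 5.39-fold higher (adjusted p = 2.9e-05). Cholesterol synthesis had 15 of 27 higher and 3 lower. Fatty acid synthesis and desaturation had 12 of 29 higher and 2 lower, but 7 higher without Quiescent replicate 2, a share below that of all genes. The desaturase Fads2 was 8.68-fold higher (adjusted p = 9.8e-05). Fabp7, a fatty acid carrier of glia and neural crest cells, was low in Quiescent, at 0.274, 0.357 and 0.059 CPM in Quiescent against 176, 226 and 288 CPM in Active, and was 959-fold higher (adjusted p = 1.6e-06). Fabp4 and Cd36, carriers known from fat and vessel cells, went the other way, 7.91-fold lower (adjusted p = 0.0056) and 8.19-fold lower (adjusted p = 0.0072).

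Transport and detoxification genes differed in both directions rather than as a block, as did all genes tested (29.1% higher and 29.2% lower). Antioxidant and glutathione genes had 17 of 43 higher and 17 lower (22 and 11 under library size alone). Gsta4, a transferase that clears lipid peroxidation products, stood at 2.62, 2.38 and 1.24 CPM in Quiescent against 324, 239 and 101 CPM in Active (105-fold higher, adjusted p = 9.7e-05), while Gpx3, a secreted peroxidase, stood at 3450, 2320 and 3570 CPM in Quiescent against 39.3, 46.9 and 26.9 CPM in Active (82.5-fold lower, adjusted p = 3.3e-05). Sod3, the extracellular superoxide dismutase, was 48.8-fold lower (adjusted p = 4.5e-06). In retinoid metabolism, which makes and breaks down the vitamin A signal, 7 of 24 were higher and 10 lower (10 and 7 under library size alone). Aldh1a3 and Aldh1a1 both make retinoic acid. Aldh1a3 stood at 3.36, 2.86 and 2.83 CPM in Quiescent against 227, 184 and 232 CPM in Active, and Aldh1a1 at 191, 312 and 419 CPM in Quiescent against 1.18, 1.6 and 2.17 CPM in Active. The isoforms differed in opposite directions, Aldh1a3 70.5-fold higher (adjusted p = 4.5e-07) and Aldh1a1 188-fold lower (adjusted p = 0.0011). Cyp26b1, which breaks retinoic acid down, was 82-fold lower (adjusted p = 3.8e-05). Steroid and xenobiotic genes were lower for 14 of 27 and higher for 5 (3 without Quiescent replicate 3 or without any 1 Active library), Cyp2f2, a monooxygenase, being 175-fold lower (adjusted p = 8.4e-05). Amino acid transporters were lower for 13 of 32 and higher for 5, and 7 lower and 10 higher under library size alone. Slc7a5, which imports large neutral amino acids, stood at 15.6, 17 and 21.1 CPM in Quiescent against 135, 77.1 and 88.2 CPM in Active (5.61-fold higher, adjusted p = 5.9e-05), whereas the glutamine transporter Slc1a5 stood at 128, 148 and 112 CPM in Quiescent against 28.2, 31.4 and 27.6 CPM in Active (4.45-fold lower, adjusted p = 6.3e-06). Over the 263 tested Slc genes 52 were higher and 97 lower (110 and 54 under library size alone).

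Among transcription factors the HOX genes, which record the position of a cell along the body axes, were lower as a group. Of 39 HOX genes 28 were tested, and 23 of these were lower and 0 higher (median -3.71). Summed over the list the level was 302 to 331 CPM in Quiescent and 32.9 to 34 CPM in Active. Hoxc8 stood at 50.9, 52.4 and 64.8 CPM in Quiescent against 1.53, 0.979 and 0.736 CPM in Active, with a log2 fold change of -5.67 ± 0.55 (SE, adjusted p = 4.5e-05). Hoxc6 and Hoxd8 were 36.7-fold lower (adjusted p = 3.6e-05) and 19.3-fold lower (adjusted p = 6.5e-05). Tbx15, a T-box factor of dermal and limb development, had 171, 179 and 189 CPM in Quiescent against 5.61, 2.76 and 4.25 CPM in Active (42.5-fold lower, adjusted p = 3.8e-05), and Tbx2, a T-box factor known from melanocyte precursors, 22.4, 12.2 and 8.86 CPM in Quiescent against 70.6, 90 and 90.8 CPM in Active (5.75-fold higher, adjusted p = 0.00018). Foxd3, a neural crest factor, stood at 0.235, 0.238 and 0.059 CPM in Quiescent (6, 4 and 1 fragments) against 151, 176 and 328 CPM in Active. It was 1160-fold higher (adjusted p = 5.5e-06), a fold size that rests on these few Quiescent fragments. Foxm1, which drives genes of late cell division, was 16.4-fold higher (adjusted p = 7.7e-05), and Klf4, a Kruppel-like factor of differentiated cells, 4.15-fold lower (adjusted p = 0.0007). Of 18 tested clock genes 5 were lower and 0 higher, a share of lower genes near that of all genes tested, though 11 were lower and 1 higher without Quiescent replicate 3. Per2, a repressor in the clock, stood at 20.7, 28.7 and 23.4 CPM in Quiescent against 4.58, 5.98 and 5.93 CPM in Active (4.41-fold lower, adjusted p = 0.00013).

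Chromatin silencing genes were higher for 24 of 39 and lower for 7 (4 without Active replicate 3). Ezh2, the histone methyltransferase of Polycomb complex 2, stood at 10.9, 12.7 and 13.3 CPM in Quiescent against 86.5, 91.8 and 84.6 CPM in Active, and its relative Ezh1, known from resting cells, at 71.4, 77.9 and 57.1 CPM in Quiescent against 31.9, 24.7 and 33 CPM in Active. The pair differed in opposite directions, Ezh2 7.13-fold higher (adjusted p = 1.8e-05) and Ezh1 2.31-fold lower (adjusted p = 0.00079). Under library size alone Ezh1 was not called, at a log2 fold change of -0.47 (adjusted p = 0.074). Lmnb1, a lamin of the nuclear envelope, stood at 11.5, 10.4 and 9.21 CPM in Quiescent against 241, 287 and 204 CPM in Active, 23.5-fold higher (adjusted p = 1.9e-05). Cbx7, a Polycomb reader of methylated histones, was 3.62-fold lower (adjusted p = 0.00068). Repair by homologous recombination and the Fanconi pathway, which mends broken and cross-linked DNA, had 32 of 45 higher and 1 lower (median 1.24). Fanci, a partner of Fancd2, was 28.9-fold higher (adjusted p = 2.8e-05).

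Imprinted genes, expressed from the allele of 1 parent, were lower for 16 of 25 and higher for 6 (median -1.64). Meg3 and Rian are noncoding RNAs of 1 imprinted region. Meg3 stood at 859, 663 and 1630 CPM in Quiescent against 3.18, 3.12 and 2.21 CPM in Active, with a log2 fold change of -8.53 ± 0.56 (SE, adjusted p = 8.5e-06). Rian was 300-fold lower (adjusted p = 1.4e-05). Ndn, which restrains division, stood at 109, 95.3 and 115 CPM in Quiescent against 2.9, 2.47 and 2.9 CPM in Active (38.6-fold lower, adjusted p = 8.9e-06). Mest, an imprinted hydrolase, went the other way and was 4.15-fold higher (adjusted p = 0.0066, 7.82-fold without Quiescent replicate 3), with Quiescent replicate 3 above its 2 companions. Nuclear hormone receptors, transcription factors switched by steroids, thyroid hormone and other small molecules, were lower for 16 of 36 and higher for 8, against 9 and 16 under library size alone. The progesterone receptor Pgr stood at 153, 156 and 205 CPM in Quiescent against 0.0623, 0.254 and 0 CPM in Active (1530-fold lower, adjusted p = 2.6e-06, 4280-fold without Active replicate 2), the estrogen receptor Esr1 at 67.3, 99.5 and 93.8 CPM in Quiescent against 1.43, 1.34 and 0.776 CPM in Active (72.4-fold lower, adjusted p = 4.5e-06), and the thyroid hormone receptor Thrb was 30.9-fold lower (adjusted p = 3.2e-05). Rxrg, the retinoid X receptor of neural tissue, stood at 5.67, 4.94 and 0.826 CPM in Quiescent against 86.5, 97.8 and 120 CPM in Active (26.2-fold higher, adjusted p = 0.0001).

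**Figure D3:**
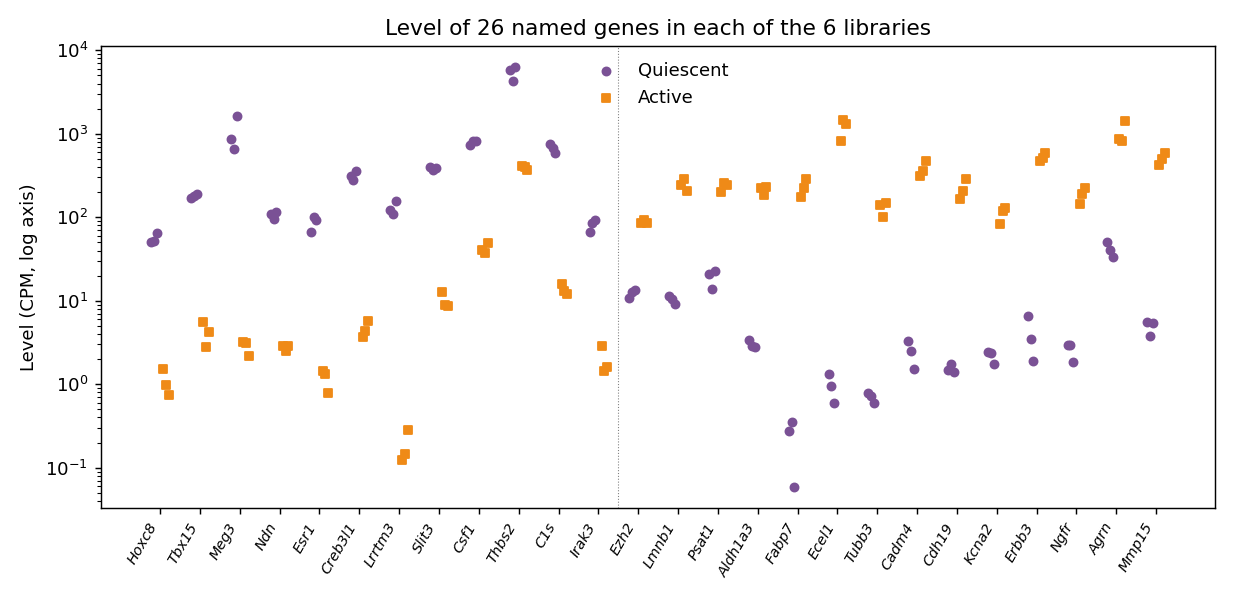
Level of 26 named genes in each of the 6 libraries, in CPM on a log axis, with 1 point per library (circles for Quiescent, squares for Active). The 12 genes left of the dotted line are lower in Active and the 14 on the right are higher. The points of the groups do not overlap in any of these genes, as the rule for naming them required.

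Genes of nerve and glial cells differed in both directions, often by large factors. Of 38 tested genes of microtubules and the neuronal cytoskeleton 24 were higher and 6 lower (median 1.17). Tubb3, a tubulin known as a neuronal marker, stood at 0.782, 0.715 and 0.59 CPM in Quiescent against 142, 99.9 and 150 CPM in Active, with a log2 fold change of 7.52 ± 0.22 (SE, adjusted p = 4.5e-07). Nes, an intermediate filament of neural stem cells, and Stmn1, which destabilises microtubules, were 29.8-fold higher (adjusted p = 5.4e-06) and 30.3-fold higher (adjusted p = 3.5e-06). Cadherins and protocadherins, which hold cells of a kind together, were higher for 20 of 37 and lower for 12. Cdh19, known from neural crest and Schwann cell precursors, stood at 1.49, 1.73 and 1.42 CPM in Quiescent against 167, 204 and 288 CPM in Active (142-fold higher, adjusted p = 1.2e-06), whereas Cdh4 stood at 406, 422 and 324 CPM in Quiescent against 5.7, 4.24 and 7.52 CPM in Active (66.1-fold lower, adjusted p = 1.6e-06). Cdh2, N-cadherin, was 35.9-fold higher (adjusted p = 8.5e-06), and Cdh10 had 0 fragments in every Quiescent library and 19, 27.7 and 32 CPM in Active, at least 518-fold higher (adjusted p = 1.1e-05). Neural adhesion molecules were higher for 23 of 52 and lower for 19. Cadm4, an immunoglobulin adhesion protein, stood at 3.28, 2.5 and 1.53 CPM in Quiescent against 309, 354 and 470 CPM in Active (152-fold higher, adjusted p = 2.6e-06), and Lrrtm3, a synaptic organiser, at 123, 109 and 157 CPM in Quiescent against 0.125, 0.145 and 0.286 CPM in Active (703-fold lower, adjusted p = 9.3e-07). Cntn6, a contactin, had 0 fragments in Quiescent and 133, 143 and 125 CPM in Active, at least 2650-fold higher (adjusted p = 3.2e-05). Mcam, an adhesion molecule known from melanoma, was 17.6-fold higher (adjusted p = 3.8e-06). Gjc3, a connexin of myelinating glia, stood at 1.25, 0.953 and 1.59 CPM in Quiescent against 236, 267 and 297 CPM in Active (210-fold higher, adjusted p = 4.5e-07), while Gja1, the common connexin of skin, was 3.36-fold lower (adjusted p = 3.1e-05).

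Ion channels differed subtype by subtype. Voltage-gated sodium and calcium channels were lower for 17 of 26 and higher for 4. Cacna1g, a low-voltage calcium channel, stood at 162, 131 and 211 CPM in Quiescent against 2.71, 3.81 and 3.8 CPM in Active (48.9-fold lower, adjusted p = 6.4e-06), and Scn8a, a neuronal sodium channel, was 141-fold higher (adjusted p = 2.0e-05, 439-fold without Quiescent replicate 2). Potassium channels had 15 of 44 higher and 17 lower, against 29.1% and 29.2% of all genes (16 and 14 under library size alone). Kcna2, a channel of axons, stood at 2.46, 2.38 and 1.77 CPM in Quiescent against 82.1, 120 and 128 CPM in Active (49.4-fold higher, adjusted p = 1.6e-06), and Kcnj8, the pore of an ATP-sensitive channel of vessels, at 97, 58.6 and 54.2 CPM in Quiescent against 0.436, 0.616 and 0.409 CPM in Active (142-fold lower, adjusted p = 1.6e-05). Piezo2, a touch-sensitive channel, was 16.2-fold higher (adjusted p = 7.7e-06), and Grik2, a kainate receptor subunit, 159-fold higher (adjusted p = 7.7e-07). Regulated secretion was represented by Syt4, a synaptotagmin, at 0.704, 1.61 and 0.118 CPM in Quiescent against 302, 161 and 96.1 CPM in Active (232-fold higher, adjusted p = 2.9e-05, 404-fold without Quiescent replicate 2). Ecel1, a membrane protease of neurons, stood at 1.33, 0.953 and 0.59 CPM in Quiescent against 823, 1460 and 1310 CPM in Active (1210-fold higher, adjusted p = 2.5e-06). Nppb, the precursor of a natriuretic peptide, had 0 fragments in Quiescent and 44.2, 23 and 36.2 CPM in Active, at least 682-fold higher (adjusted p = 1.6e-05). Aqp1, a water channel, stood at 209, 165 and 136 CPM in Quiescent against 1130, 991 and 1630 CPM in Active (7.36-fold higher, adjusted p = 3.2e-05).

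Receptors and ligands of growth factors were distributed unequally between the groups. In the EGF, PDGF, IGF, VEGF and HGF axes 25 of 39 genes were lower and 9 higher (median -2.44). Csf1, the ligand that sustains macrophages, stood at 739, 817 and 817 CPM in Quiescent against 40.9, 37.6 and 49.4 CPM in Active (18.6-fold lower, adjusted p = 1.2e-06), and Igfbp5, an IGF binding protein of fibroblasts, at 2920, 3350 and 3020 CPM in Quiescent against 59.3, 91 and 106 CPM in Active (36.2-fold lower, adjusted p = 6.3e-06). Among receptors, Erbb3, which binds neuregulins, stood at 6.61, 3.52 and 1.89 CPM in Quiescent against 476, 514 and 586 CPM in Active, and was 129-fold higher (adjusted p = 9.6e-06, 194-fold without Quiescent replicate 1). Met, the receptor of hepatocyte growth factor, was 11.1-fold higher (adjusted p = 3.8e-05), and the vessel receptors Kdr and Flt1 were 18-fold lower (adjusted p = 1.2e-05) and 21.1-fold lower (adjusted p = 7.9e-06). In the neurotrophin and GDNF axes 9 of 24 were higher and 6 lower. Ngfr, the low-affinity neurotrophin receptor, stood at 2.93, 2.98 and 1.83 CPM in Quiescent against 143, 188 and 223 CPM in Active (71-fold higher, adjusted p = 1.8e-06), and Ptprz1, a receptor phosphatase of glia, at 1.25, 1.79 and 1.42 CPM in Quiescent against 367, 509 and 643 CPM in Active (343-fold higher, adjusted p = 2.1e-06). Gfra3, the receptor for artemin, was 270-fold higher (adjusted p = 3.6e-05, 409-fold without Quiescent replicate 2, 175-fold without Active replicate 3), and Ntrk2, the receptor for brain-derived neurotrophic factor, 13-fold lower (adjusted p = 0.00038). Fgf7, a growth factor for epithelial cells, and its receptor Fgfr2 were 21.1-fold lower (adjusted p = 0.00041) and 11-fold lower (adjusted p = 0.00018). Fgfr1, a receptor of other FGF ligands, was 2.74-fold lower (adjusted p = 0.0002).

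TGF-beta and BMP ligands and their antagonists were lower for 25 of 36 and higher for 5 (3 without Quiescent replicate 3), with a median of -2.38. Ltbp1, which stores latent TGF-beta in the matrix, stood at 915, 953 and 920 CPM in Quiescent against 50.2, 31.9 and 29.8 CPM in Active, with a log2 fold change of -4.64 ± 0.29 (SE, adjusted p = 6.3e-06). Bambi, a decoy receptor, went the other way at 7.9, 11.9 and 7.14 CPM in Quiescent against 32.6, 27.6 and 52.9 CPM in Active (4.21-fold higher, adjusted p = 0.00044). On the side of receptors, SMADs and targets 17 of 30 were lower and 5 higher (3 without Active replicate 1 or 3), but 6 and 10 under library size alone. Tgfbr2, the type II receptor, stood at 1050, 1110 and 1290 CPM in Quiescent against 273, 314 and 404 CPM in Active (3.48-fold lower, adjusted p = 4.9e-05). Notch genes were lower for 13 of 29 and higher for 4, against 8 and 11 under library size alone, and the receptors differed in direction. Notch1 stood at 32.7, 31.8 and 19.6 CPM in Quiescent against 160, 138 and 207 CPM in Active (6-fold higher, adjusted p = 5.9e-05), and Notch3, known from pericytes, at 112, 53.1 and 59 CPM in Quiescent against 5.61, 4.89 and 4.25 CPM in Active (15.2-fold lower, adjusted p = 5.7e-05). Heyl, a target repressor, was 9.62-fold higher (adjusted p = 2.2e-05). In the Hedgehog pathway 7 of 17 were lower and 2 higher (5 and 6 under library size alone). The ligand Dhh, made by Schwann cells, was 37.7-fold higher (adjusted p = 4.3e-05, 77.7-fold without Quiescent replicate 1), and the co-receptor Cdon stood at 134, 118 and 113 CPM in Quiescent against 6.39, 6.13 and 6.09 CPM in Active (19.6-fold lower, adjusted p = 6.1e-06). Wnt ligands and receptors had 7 of 35 higher and 13 lower (12 and 9 under library size alone). The ligands Wnt4 and Wnt6 were 11.3-fold higher (adjusted p = 4.6e-05, 17.4-fold without Quiescent replicate 1) and 16.5-fold higher (adjusted p = 3.3e-05), the receptor Ror2 stood at 98.8, 83.3 and 105 CPM in Quiescent against 3.02, 3.88 and 4.74 CPM in Active (24.7-fold lower, adjusted p = 9.0e-06), and Lef1, a nuclear effector, was 11.5-fold higher (adjusted p = 3.0e-05). Guidance genes had 19 of 65 higher and 22 lower, shares near those of all genes (27 and 15 under library size alone). Among them the semaphorin Sema3e stood at 2.78, 3.4 and 4.37 CPM in Quiescent against 65.8, 77.3 and 70.6 CPM in Active (20.4-fold higher, adjusted p = 4.7e-06). The secreted repellent Slit3 stood at 399, 368 and 390 CPM in Quiescent against 12.8, 8.92 and 8.75 CPM in Active (38-fold lower, adjusted p = 1.8e-05). Within the cell, Creb3l1, a membrane-bound transcription factor of collagen secretion, stood at 315, 277 and 358 CPM in Quiescent against 3.71, 4.31 and 5.76 CPM in Active (69.1-fold lower, adjusted p = 1.2e-06).

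Matrix genes differed in both directions, as did all genes tested (29.1% higher and 29.2% lower). Proteoglycans and matricellular proteins were lower for 29 of 55 and higher for 11. Thbs2, a thrombospondin, stood at 5800, 4350 and 6330 CPM in Quiescent against 410, 398 and 372 CPM in Active (14-fold lower, adjusted p = 3.6e-06), whereas Cspg4, a proteoglycan of pericytes, glia and melanoma cells, stood at 23.6, 15.5 and 13.1 CPM in Quiescent against 567, 476 and 543 CPM in Active (30.3-fold higher, adjusted p = 1.4e-05). Gpc1, a glypican, and Matn4, a matrilin, were 37.5-fold higher (adjusted p = 3.4e-05) and 64.3-fold higher (adjusted p = 1.4e-05). Basement membrane genes had 12 of 33 higher and 13 lower (16 and 11 under library size alone). Agrn, a heparan sulfate proteoglycan, stood at 50.4, 40.6 and 33.5 CPM in Quiescent against 872, 829 and 1410 CPM in Active, with a log2 fold change of 4.64 ± 0.30 (SE, adjusted p = 7.3e-06), and Nid2, a linker of laminin and collagen IV, was 19.9-fold higher (adjusted p = 2.5e-05). Collagen IV chains differed in direction, Col4a2 being 5.15-fold higher (adjusted p = 0.0001) and Col4a5 8.22-fold lower (adjusted p = 2.1e-06). Of 26 tested integrin genes, receptors for the matrix, 9 were higher and 11 lower (12 and 7 under library size alone). Itga6, a laminin receptor, stood at 23.5, 14.3 and 12.1 CPM in Quiescent against 263, 262 and 259 CPM in Active (15.7-fold higher, adjusted p = 9.3e-06), Itga4 was 36.8-fold higher (adjusted p = 0.0001, 76.6-fold without Quiescent replicate 2), and Itga11, a collagen receptor, was 21.4-fold lower (adjusted p = 8.9e-06). Matrix proteases and inhibitors had 13 of 47 higher and 20 lower (21 and 16 under library size alone). Mmp15, a membrane metalloprotease, stood at 5.55, 3.81 and 5.37 CPM in Quiescent against 420, 504 and 592 CPM in Active (102-fold higher, adjusted p = 3.5e-06), and Adamts20, a protease needed for the spread of melanoblasts, was 216-fold higher (adjusted p = 2.1e-06). Adamts2, which trims procollagen, stood at 3530, 3390 and 3310 CPM in Quiescent against 34.3, 42 and 47.6 CPM in Active (82.7-fold lower, adjusted p = 2.1e-06). Plod2 and P4ha2 hydroxylate collagen. Plod2 was 27.3-fold higher (adjusted p = 1.6e-06), and P4ha2 7.81-fold lower (adjusted p = 4.1e-06).

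**Figure D4:**
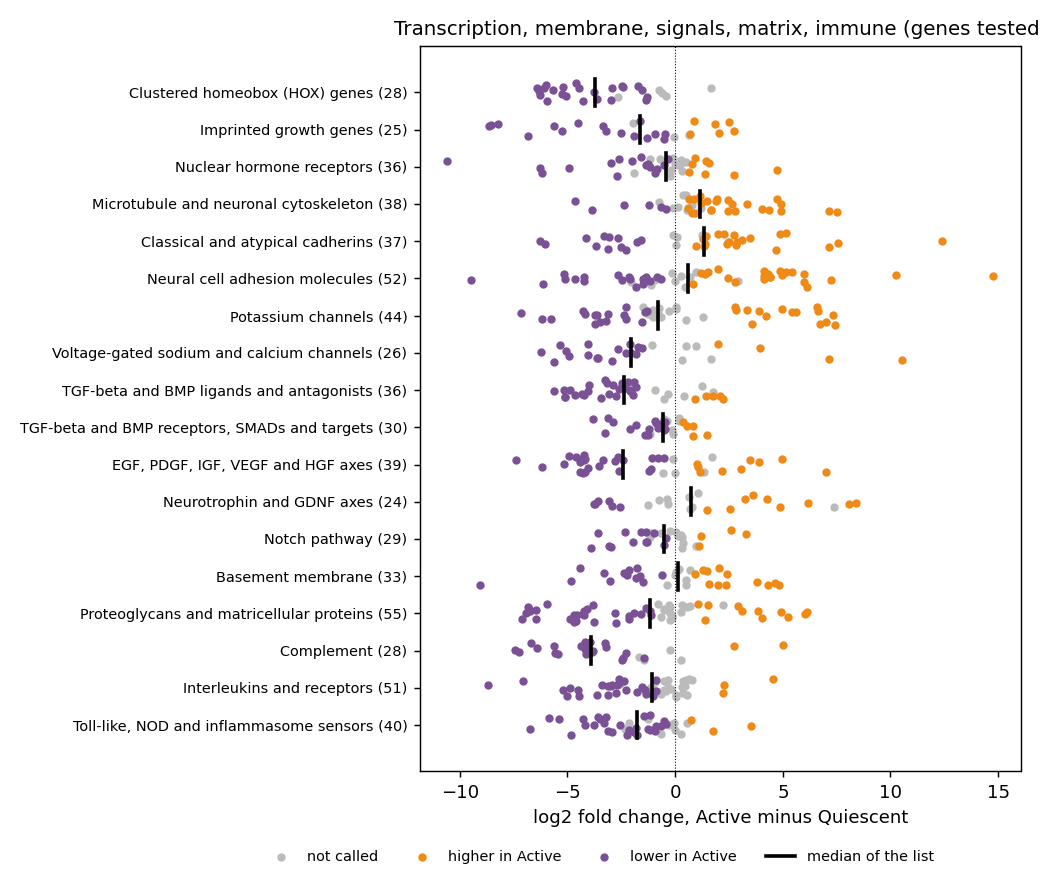
log2 fold change of each tested member of 18 lists, with 1 point per gene (orange: higher in Active, purple: lower, grey: not called) and a black bar at the median of the list. HOX, complement, TGF-beta ligand and growth factor lists have medians of -3.71, -3.90, -2.38 and -2.44, while cadherins and the neuronal cytoskeleton have medians of 1.34 and 1.17, and the points of genes with 0 fragments in a group depend on the fitting prior.

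In each of 5 immune lists more genes were lower than higher in Active. Complement, the blood-borne cascade that tags cells, was lower for 22 of 28 and higher for 2 (median -3.90). C1s, a protease of the first step, stood at 765, 675 and 587 CPM in Quiescent against 15.8, 13.1 and 11.9 CPM in Active (49.7-fold lower, adjusted p = 4.6e-05). Csmd1, a membrane inhibitor, went the other way and was 32.2-fold higher (adjusted p = 4.8e-06). Interleukins and receptors were lower for 26 of 51 and higher for 3, and Toll-like, NOD and inflammasome sensors lower for 28 of 40 and higher for 3. Il6ra, the interleukin 6 receptor, was 37.4-fold lower (adjusted p = 1.8e-05), and Il1rap, the shared chain of interleukin 1 receptors, 4.86-fold higher (adjusted p = 2.3e-05). Irak3, which damps Toll-like signals, stood at 67.5, 85.8 and 93.4 CPM in Quiescent against 2.84, 1.45 and 1.59 CPM in Active (41.5-fold lower, adjusted p = 2.9e-05). Chemokines and receptors were lower for 17 of 49 and higher for 2, a share of lower genes near the background, with Ccl7, a monocyte attractant, 74.7-fold lower (adjusted p = 9.9e-05, 37.1-fold without Quiescent replicate 2). Ackr3, listed under its older name Cxcr7, a scavenging receptor, was 40.2-fold lower (adjusted p = 1.6e-06). Antigen presentation, also near the background, had 11 of 31 lower and 1 higher, which became 20 lower without Quiescent replicate 3 and 4 lower and 6 higher under library size alone, with Tapbp, which loads peptides, 3.63-fold lower (adjusted p = 2.7e-05). The macrophage list was fullest in Quiescent replicate 2. Without that library the counts were 25 lower and 5 higher for interleukins, 22 lower and 3 higher for the sensors and 18 lower and 2 higher for complement. They were 12 lower and 3 higher for chemokines and 9 lower and 0 higher for antigen presentation.

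Stress genes followed no single direction. Immediate early genes, switched on within minutes by signals and by tissue handling, were lower for 11 of 29 and higher for 2. Without Active replicate 1, 7 were lower, and without Active replicate 3, 18 were. Jund stood at 950, 1080 and 889 CPM in Quiescent against 293, 234 and 414 CPM in Active (3.1-fold lower, adjusted p = 0.00033), and Dusp1, a phosphatase of kinase signals, was 6.63-fold lower (adjusted p = 0.00098, 10.5-fold without Active replicate 3). Hypoxia genes were lower for 14 of 30 and higher for 6, and 8 lower and 12 higher under library size alone. Epas1, an oxygen-sensing factor of vessels, was 6.72-fold lower (adjusted p = 0.00012). Targets of p53 had 10 of 32 higher and 12 lower, the share of higher genes being near that of all genes. Under library size alone these were 17 and 4, and 6 were higher without Quiescent replicate 1 or Active replicate 1. The counts for cell death regulators were 15 of 42 higher and 12 lower, shares near those of all genes. Bax, which opens the mitochondrial membrane, stood at 41.7, 40.1 and 40.2 CPM in Quiescent against 109, 117 and 117 CPM in Active (2.81-fold higher, adjusted p = 1.4e-05), and its opponents Bcl2 and Bcl2l1 were 4.21-fold higher (adjusted p = 0.00013) and 4.12-fold higher (adjusted p = 6.3e-05). Genes linked with restraint of growth in resting stem cells were lower for 16 of 32 and higher for 7 (8 and 11 under library size alone, and 4 higher without Active replicate 1). Lrig1, an inhibitor of EGF receptors, stood at 179, 172 and 165 CPM in Quiescent against 24.6, 20.5 and 23.9 CPM in Active (7.49-fold lower, adjusted p = 1.4e-05), and Gas6, a ligand of Axl, at 2240, 2380 and 1860 CPM in Quiescent against 38.2, 28.8 and 27.3 CPM in Active (68.7-fold lower, adjusted p = 1.7e-05). Rbl1, a relative of the retinoblastoma protein, was 5.02-fold higher (adjusted p = 0.00025).

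Families taken by gene name gave a view that does not rest on a pathway. Kinesins, motors of microtubules, were higher for 22 of 34 and lower for 5 (3 without Active replicate 1), and RNA helicases of the Ddx and Dhx names higher for 24 of 52 and lower for 8. Ddx39, an RNA export helicase, was 3.87-fold higher (adjusted p = 0.0001). Zinc finger genes with the Zfp name were higher for 60 of 330 and lower for 85, with 183 and 17 under library size alone and a median of -0.12. Zfp423, a factor of fat cell precursors, stood at 24.5, 19.1 and 18.7 CPM in Quiescent against 0.872, 0.326 and 0.531 CPM in Active (35.4-fold lower, adjusted p = 1.8e-05). C-type lectins were lower for 10 of 19 and higher for 1. Without Quiescent replicate 2, the fullest in macrophage markers, 5 were lower and 2 higher, a share near the background, and 6 were lower without Active replicate 3. Clec3b, known as tetranectin, stood at 1180, 985 and 1200 CPM in Quiescent against 7.48, 12.7 and 2.66 CPM in Active (147-fold lower, adjusted p = 4.1e-05). Interferon-induced genes were lower for 16 of 26 and higher for 1. Sugar-modifying enzymes were split: St8sia2, which makes polysialic acid, was 40-fold higher (adjusted p = 4.5e-06), and B4galt1, a galactosyltransferase, 5.01-fold lower (adjusted p = 5.4e-06). S100b, a calcium-binding protein of glia and melanocytes, stood at 2.66, 1.55 and 3.6 CPM in Quiescent against 239, 213 and 278 CPM in Active (93.2-fold higher, adjusted p = 2.1e-06). Gpr17, a receptor of oligodendrocyte precursors, was 202-fold higher (adjusted p = 6.4e-06), and Gpr133, an adhesion receptor, 105-fold lower (adjusted p = 9.6e-06). Usp6nl, a regulator of endocytosis named in the ubiquitin-specific protease family, was 5.7-fold higher (adjusted p = 5.2e-06), and Usp18, an interferon-induced protease, 16.2-fold lower (adjusted p = 5.5e-06).

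Outside all lists and families, the genes with the largest differences were described by the same rule. Crym, which binds thyroid hormone, stood at 0.274, 0.477 and 0.354 CPM in Quiescent against 285, 324 and 286 CPM in Active, with a log2 fold change of 9.68 ± 0.41 (SE, adjusted p = 1.6e-06). Alppl2 and Alpi, alkaline phosphatases, were 916-fold higher (adjusted p = 9.0e-06, 1910-fold without Quiescent replicate 1) and 1110-fold higher (adjusted p = 1.6e-05, 657-fold without Quiescent replicate 1). Ajap1 and Igsf11, both proteins of cell contacts, were 352-fold higher (adjusted p = 2.1e-06) and 201-fold higher (adjusted p = 1.4e-06), and Ptgds, a prostaglandin D synthase, 173-fold higher (adjusted p = 3.3e-05, 326-fold without Quiescent replicate 2). Megf10, an engulfment receptor, stood at 1.25, 0.536 and 0.708 CPM in Quiescent against 207, 216 and 219 CPM in Active (246-fold higher, adjusted p = 2.1e-06), and Tfap2b, a neural crest factor, was 86.7-fold higher (adjusted p = 3.3e-05). On the lower side, Angptl1, a secreted angiopoietin-like protein, stood at 415, 615 and 600 CPM in Quiescent against 1.03, 1.16 and 0.858 CPM in Active (531-fold lower, adjusted p = 3.6e-06), Adh1, an alcohol dehydrogenase that also acts on retinol, at 684, 629 and 676 CPM in Quiescent against 3.27, 3.23 and 2.53 CPM in Active (219-fold lower, adjusted p = 3.8e-05), and Osr2, a developmental zinc finger factor, was 171-fold lower (adjusted p = 3.6e-06). Tnmd, a marker of tendon and ligament cells, was 175-fold lower (adjusted p = 0.00014, 98.8-fold without Quiescent replicate 3). Klk1b21, a tissue kallikrein, had 0 fragments in Active and 535, 390 and 1430 CPM in Quiescent. It has near-identical copies whose fragments the counting model may share, so its separate value is uncertain.

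Levels between genes are compared per kilobase, in the FPKM values deposited by the authors. The most abundant protein-coding genes of Quiescent were Col1a2 and Col1a1, collagen I chains, at 25700 ± 2780 and 25200 ± 3960 FPKM (SD, n = 3), against 145 and 152 FPKM in Active. In Active they were Eef1a1, the elongation factor that brings tRNAs to the ribosome, at 4960 ± 77.8 FPKM, and Tpt1, a growth-related protein, at 3270 ± 122 FPKM. Their means in Quiescent were 4890 and 3960 FPKM. Ppia, cyclophilin A, and Dct were the genes among the 10 most abundant of Active with the largest gap to Quiescent, at 2850 ± 132 and 2590 ± 672 FPKM against 1060 and 8.18 FPKM.

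For 6292 genes no difference was called. Among all 15078 genes tested, called or not, 5793 (38.4%) had a 95% interval of the log2 fold change within a 2-fold difference either way. A larger change was not found there under TMM scaling. For the rest the interval reached beyond 2-fold, which leaves room for a larger change where none was called. The rest also includes genes called with larger differences. The median coefficient of variation between replicates was 0.176 in Quiescent and 0.122 in Active.

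**Figure D5:**
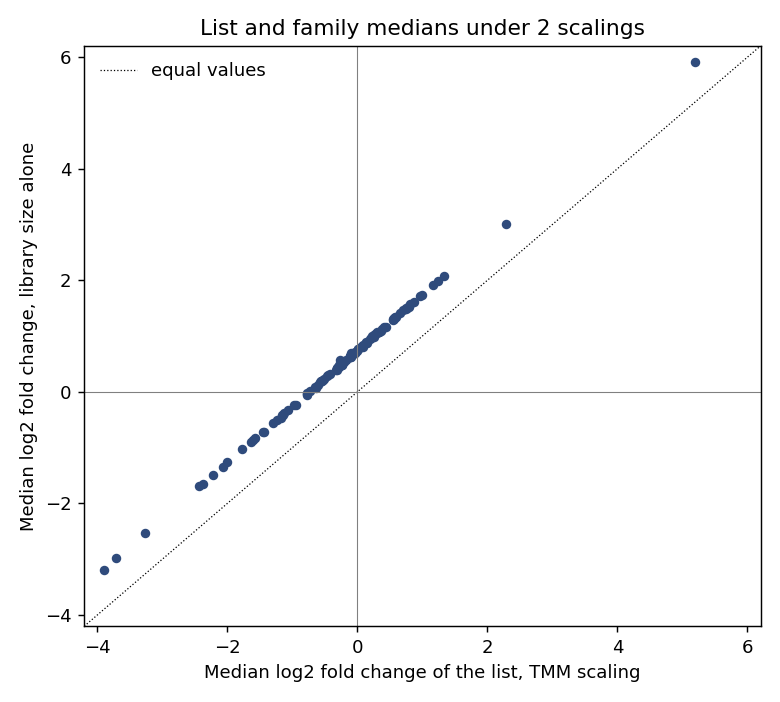
Median log2 fold change (Active minus Quiescent) of the 112 function lists and families, with TMM scaling on the x axis and library size alone on the y axis, 1 point per list and a dotted line of equal values. Every point lies above the line, and those with a small negative median under TMM lie above 0 under library size alone.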

How the data were processed

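Poly(A) RNA of FACS-sorted cells was sequenced from a strand-specific kit, per the labels' protocols. Per the submitters' processing notes, the tools named are cutadapt 1.8, TopHat2 2.0.13 and Cuffdiff 2.2.1, with build mm10. Neither the annotation nor the counting's strand setting is given in the sources used here, so overlapping and antisense genes cannot be told apart. The authors deposited, per gene and library, estimated counts of fragments and FPKM, both from Cuffdiff. Of 210249 estimated counts 1.07% were not whole (tolerance 1e-06) and were rounded. Cuffdiff marked 18 values, in 7 genes, as failed. These genes stayed in the table and none of them is named in the text.

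Counts were scaled by TMM and tested with edgeR 4.0.16 (R 4.3.3), using its quasi-likelihood test in 1 fit of all 9 libraries, after its default filter on low counts. Genes with adjusted p under 0.05 (Benjamini-Hochberg) were called. SE is the absolute log2 fold change divided by the square root of F. A fold against a group with 0 fragments is a lower bound, set at 3 fragments over that group, and covers counting error only. On simulated data, 1.5%, 40.3% and 72.7% of genes changed 1.5-fold, 2-fold and 4-fold were recovered in this comparison (66, 67 and 66 genes changed among 14914 tested, 2 false calls). The simulation changed a far smaller share of genes than the 58.3% called in the data. The adjusted p depends on that share, so these rates do not measure recovery in the data.

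The 96 gene lists and 36 name families, and the members described, were chosen with earlier results of these data known, so a list's direction is no independent evidence. Of 3153 list entries 11 were not matched and 21 matched by an older symbol. Up to 4 members per list and direction with the smallest adjusted p could be named, given groups that did not overlap and an average log2 CPM of 3 or more. In addition, the 15 largest differences each way outside the lists (average log2 CPM of 5 or more), the 10 most abundant genes of each group by FPKM, and list members at 0 fragments in 1 group with at least 5 CPM in every library of the other could be named. Genes shown with promoter sequence were those with the smallest adjusted p among called members holding the letters. Alternatives were other scalings, filters, samples and replicate terms, DESeq2 1.42.0, and limma 3.58.1 on log2(FPKM + 1) and log2(FPKM + 0.1).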

Additional observations from a re-analysis of the deposited data

How the results depend on the processing

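The counts of 4390 higher and 4396 lower genes stayed within 1.5 times under every alternative run except library size alone, which gave 8651 higher and 2208 lower genes and put 285 of the called genes on the opposite side. Leaving out 1 library at a time gave 3807 to 4341 higher and 3640 to 4286 lower genes. Of the 203 genes named with a test, each kept its side of the threshold under the other alternatives run (202 of them with a value in DESeq2). Under library size alone 196 did. There Mcoln1 and Ctsa turned to log2 fold changes of 0.10 and 0.01, Ezh1, Xbp1 and Eif4ebp1 lost their call, and Eef1a1 and Tpt1 gained one. The cause was not tested. Stability of these 203 genes does not measure that of calls in general, since other genes that met the naming rule are left out of the text. All genes meeting that rule whose call was lost without 1 library are among those left out. Examples are Klf10 (adjusted p = 0.055 without Active replicate 2) and Igf2r (adjusted p = 0.068 without Quiescent replicate 2). The stability of the 203 when 1 library is left out thus follows from which genes were kept. Of the 156 counts of list members, 78 moved by more than 1.5 times under library size alone. Leaving out 1 library moved 10 to 16 of them that far, and the filter of at least 50 counts in 3 libraries moved 15. Many of these were counts under 5, and the larger ones stand beside their lists. The replicate numbers were not taken to pair the libraries, since deviations of same-numbered Active and Quiescent libraries correlated at 0.126, 0.065 and 0.231, though each library correlated best with its own number. With a replicate block 4135 genes were higher and 4088 lower, and no named gene changed its call. Small differences are limited by the 3 libraries a group.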

Other observations

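Serpins and coagulation genes, inhibitors of proteases and factors of clotting, were lower for 22 of 38 and higher for 4 (median -1.16). Serpinf1, a secreted factor that restrains vessel growth, stood at 1650, 1560 and 1560 CPM in Quiescent against 22.4, 25.3 and 20.6 CPM in Active (69.8-fold lower, adjusted p = 7.9e-06). Serping1, the inhibitor of the first complement protease, was 74.2-fold lower (adjusted p = 1.7e-05), and Vwf, a clotting protein of vessels, 17.9-fold lower (adjusted p = 1.1e-05). Serpine2, a protease inhibitor of glia and other cells, went the other way and was 9.13-fold higher (adjusted p = 1.4e-05).

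Neurotransmitter receptors were higher for 12 of 38 and lower for 13, shares near those of all genes, and 20 and 12 under library size alone. Glrb, a glycine receptor subunit, was 5.66-fold higher (adjusted p = 5.7e-05). TNF ligands and receptors were lower for 12 of 28 and higher for 5, with 9 each way under library size alone. Tnfrsf26 and Tnfrsf21, receptors of this family, were 118-fold lower (adjusted p = 1.0e-05) and 6.24-fold higher (adjusted p = 0.00013). Keratins were higher for 14 of 33 and lower for 1, but 8, 9 and 7 were higher without Quiescent replicate 3, Active replicate 1 and Active replicate 2. These counts stand beside the hair matrix and inner root sheath marker sums of 5.55 to 45.3 CPM in Quiescent and 120 to 722 CPM in Active. The part of those cells in the keratin counts was not tested.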
